A study of Homo sapiens with 24 samples.

Results

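Gene expression was compared between 2 human breast cancer cell lines, HCC1806 and MDAMB468, in cells carrying a control hairpin. The members are the 6 libraries that the labels name shNT in these lines, 3 of HCC1806 and 3 of MDAMB468, out of 24 libraries in the series. The study lowered the RNA-editing enzyme ADAR1 with a short hairpin RNA (shADAR1) in 4 lines that its design text calls TNBC (triple-negative breast cancer), and shNT is its control. All members of both groups received lentiviral shRNA, with infection for 24 h in protamine sulfate at 10 µg/ml and puromycin at 2 µg/ml for 72 h, and were grown in DMEM with 10% serum. Neither group is an untransduced parental culture, no drug other than puromycin is named, and the labels give genotype only as the hairpin. The labels call the 3 libraries of a group biological replicates. Because each group is 1 cell line, a difference belongs to these lines, not to a tumour subtype. P-values rest on the spread between cultures within a group, estimated over all 24 libraries of the 4 lines with either hairpin.

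HCC1806 and MDAMB468 are both usually placed in the basal-like class of triple-negative lines, whose cells keep keratins of the basal layer of stratified or glandular epithelium. As background, HCC1806 came from a primary breast carcinoma with squamous features, and MDAMB468 from a pleural effusion of a breast adenocarcinoma. Squamous epithelium is attached to its basement membrane by laminin-332, integrin alpha6-beta4 and collagen XVII, is programmed by the transcription factor p63, and fills its outer layers with small proline-rich and S100 proteins. Luminal breast epithelium is known instead for simple keratins, mucins and factors such as SPDEF.

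Total counts of the HCC1806 libraries were 24199130, 52047479 and 53341824, and those of the MDAMB468 libraries 24475125, 43078524 and 51946473, in the order of their replicate numbers. Values below are CPM, counts scaled to a common library size and adjusted by TMM, a normalisation that lines up the bulk of the genes between libraries. Correlations of log2 CPM between libraries were 0.977 to 0.989 within a line and 0.834 to 0.851 between the lines. Mitochondrial transcripts took 3.98 to 4.47% of counts in HCC1806 and 5.24 to 6.07% in MDAMB468. The third HCC1806 library stood somewhat apart: of 13910 genes with a mean of at least 1 CPM in that line, 375 (2.70%) were under 0.5 times the mean of the other libraries, against 227 and 97 for the first and second. Means are given ± SD over the 3 libraries of a line (n = 3), HCC1806 first.

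Epithelial markers were high in both lines. Summed over 10 breast epithelial markers, levels were 5653, 5089 and 5502 CPM in HCC1806 and 6255, 5593 and 5135 CPM in MDAMB468. KRT5, the basal keratin, had 1356, 1181 and 1173 CPM in HCC1806 and 1310.0, 1168 and 1132 CPM in MDAMB468, and EPCAM, an epithelial surface protein, had 299.96, 282 and 317 CPM in HCC1806 and 266, 245 and 248.6 CPM in MDAMB468. Neither passed the test (adjusted p = 0.89 and 0.078). ELF5, a luminal progenitor factor, was near 0 in both, at 0.088, 0.166 and 0.232 CPM in HCC1806 and 0.455, 0.415 and 0.389 CPM in MDAMB468. The 10 leukocyte markers summed to 51.5, 56.3 and 48.9 CPM and 13.2, 10.97 and 11.9 CPM, nearly all of the HCC1806 sum from CD68 (48.7 ± 3.95 against 2.12 ± 0.214 CPM), while MS4A1 was at 0 in all 6 libraries and CD3E at 0.00644 and 0.00691 CPM. Endothelial markers summed to 1.87 to 2.86 and 5.85 to 6.58 CPM, with CDH5 at 0 in HCC1806, adipocyte markers to 6.73 to 13.4 and 11.5 to 15.1 CPM, with ADIPOQ at 0.0416 and 0.0118 CPM, and fibroblast markers to 32.8 to 48.8 and 22.2 to 27.7 CPM, most of it from COL1A1 (30.1 ± 8.53 against 21.6 ± 3.66 CPM), with DCN at 0.0267 and 0 CPM.

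Of 21352 genes tested, 13438 (62.9%) differed between the lines at an adjusted p under 0.05 in edgeR's quasi-likelihood test. Such genes are referred to as called. HCC1806 was higher at 7198 of them (33.7% of genes tested) and lower at 6240 (29.2%). A stricter rule asked for a difference beyond 2-fold (edgeR's glmTreat, adjusted p under 0.05), and 6096 genes (28.6%) passed it, 3333 (15.6%) higher and 2763 (12.9%) lower in HCC1806. These are called over 2-fold apart below. The median log2 difference over all genes tested was 0.04, and the median of its absolute size was 0.90. In 12796 of the 13438 called genes, out of 21352 tested, the 3 libraries of one line all lay above the 3 of the other. Groups that do not overlap are thus the usual case for a called gene and do not mark one out. With close to 2 in 3 genes called, a list with that share of members called does not stand out, and list counts are given against these percentages. All differences are HCC1806 minus MDAMB468.

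**Figure D1:**
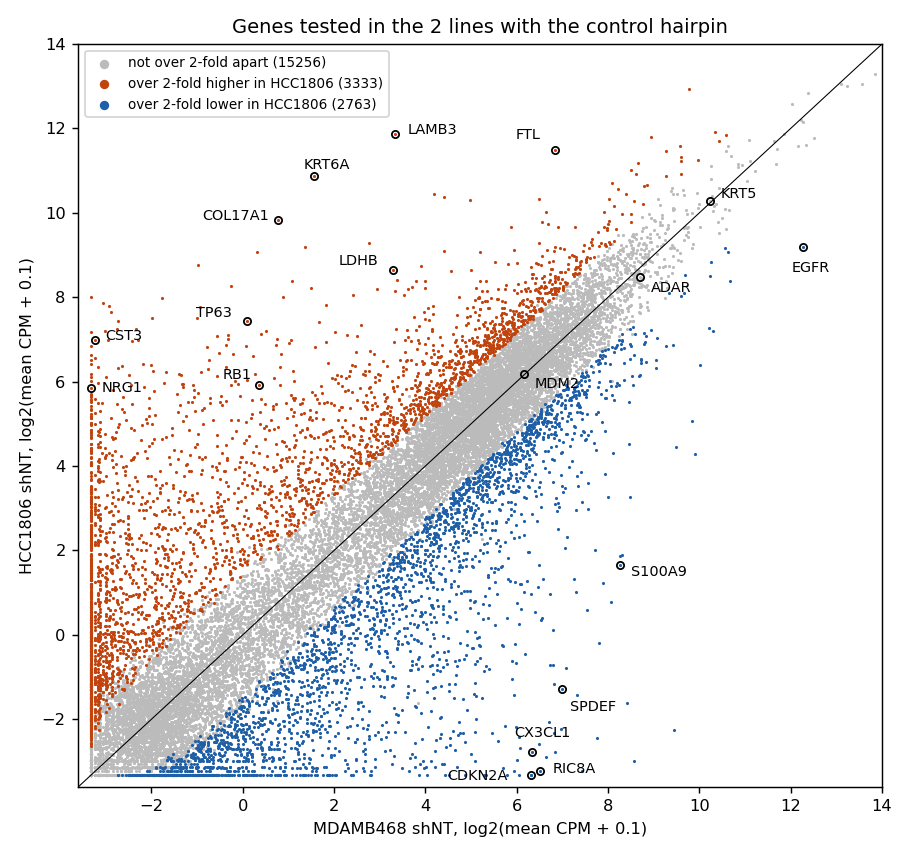
Each point is a gene tested, with the mean CPM of the 3 MDAMB468 shNT libraries on the x axis and of the 3 HCC1806 shNT libraries on the y axis, both as log2(CPM + 0.1), and the line marks equal levels. The 3333 red and 2763 blue genes are over 2-fold apart, KRT5 and MDM2 lie on the line, and genes such as NRG1 and CDKN2A sit at the edge because one line had no counts.

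The widest contrasts were genes with many reads in one line and almost none in the other. Of genes over 2-fold apart, 120 had at least 10 CPM in HCC1806 and no more than 3 counts summed over the MDAMB468 libraries, and 25 showed the reverse. MMP1, an interstitial collagenase, had 282, 283 and 206 CPM in HCC1806 and no count in MDAMB468, which makes it at least 11241-fold higher (against a floor of 3 counts over the group, used for all such bounds). CST3, the secreted protease inhibitor cystatin C, had 115, 144 and 120.2 CPM in HCC1806 and 1 count in MDAMB468, a ratio of 21440.0 (95% interval 3848 to 846900.0). NID1, the basement membrane linker nidogen, had 139.8, 140.0 and 164 CPM against 3 counts, a ratio of 6052 (95% interval 2071 to 29350.0). These intervals cover counting error only. The same pattern held for UBN1, a histone chaperone subunit (at least 6311-fold higher), TBX3, a T-box transcription factor (at least 4992-fold), EEF1A2, a translation elongation factor (222 ± 56.9 against 0.0315 ± 0.0279 CPM), and BCAT1, which starts branched-chain amino acid breakdown (200.1 ± 30.1 against 0.0362 ± 0.0354 CPM).

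In the other direction, AZGP1, a secreted zinc-binding glycoprotein, had 0, 0.0208 and 0.0579 CPM in HCC1806 and 456, 358 and 322 CPM in MDAMB468. CASP14, the caspase of cornifying keratinocytes, had 0.088, 0.1248 and 0.116 and 877, 674 and 536 CPM. SLC1A6, a glutamate transporter, had 1 count in HCC1806 and 212, 158 and 144 CPM in MDAMB468, a ratio of 26620.0 (95% interval 4778 to 1051000.0). In each of these the groups were far apart, and the lower line was at or near no signal. PTCHD1, CDKN2A and CYP4B1 had no count in HCC1806 and 78.9 ± 12.9, 78.8 ± 4.36 and 66.2 ± 17.3 CPM in MDAMB468 (SD, n = 3), so they were at least 3225-, 3222- and 2706-fold lower.

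Among genes over 2-fold apart, those with the most reads in HCC1806 were PLEC, the cytolinker plectin (7781 ± 876 against 876 ± 47.9 CPM), CD44, the hyaluronan receptor (3851 ± 1378 against 1294 ± 224 CPM), LAMB3, and the chaperones HSP90AA1 (3695 ± 336 against 1528 ± 80.9 CPM) and HSPA5 (3577 ± 585 against 492 ± 134 CPM). Among those with the most reads in MDAMB468 were EGFR, the chaperonin subunit CCT6A (333 ± 13.9 against 1638 ± 35.4 CPM), the integrin activator TLN1 (538 ± 65.7 against 1581 ± 40.1 CPM) and the receptor NOTCH3 (147 ± 63.4 against 1254 ± 81.2 CPM). PLEC differed by 3.15 ± 0.14 (SE, adjusted p = 1.3e-14) and HSPA5 by 2.86 ± 0.18 (SE, adjusted p = 3e-12). CD44, HSP90AA1 and TLN1 differed by less than 3-fold.

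Basal and squamous genes gave the highest median of the lists. Of 57 members tested, 35 were called higher in HCC1806 and 14 lower, against 33.7% and 29.2% of all genes. Over 2-fold, 30 were higher and 11 lower, against 15.6% and 12.9% of all genes. The median log2 difference was 2.45. In the third HCC1806 library 8 of 51 expressed members were under 0.5 times the other 2.

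LAMB3 and LAMA3, which encode chains of laminin-332, were over 2-fold higher in HCC1806. LAMB3 had 3183, 5717 and 2281 CPM in HCC1806 and 10.9, 9.37 and 9.74 CPM in MDAMB468, and LAMA3 had 349, 351 and 179 CPM in HCC1806 and 10.1, 7.15 and 5.59 CPM in MDAMB468. COL17A1, the collagen of the hemidesmosome, had 1099, 1079 and 547 CPM in HCC1806 and 1.59, 1.51 and 1.70 CPM in MDAMB468. The third HCC1806 library was the lowest at all 3 genes, and still lay at least 17.7 times above the highest MDAMB468 library. Log2 differences were 8.54 ± 0.56 (SE, adjusted p = 5.7e-12) for LAMB3 and 9.14 ± 0.45 (SE, adjusted p = 3.4e-14) for COL17A1. The integrin subunits that bind laminin-332 followed, with ITGB4 at 1294 ± 214 against 89.0 ± 8.50 CPM and ITGA6 at 1042 ± 212 against 100.3 ± 9.48 CPM, as did COL7A1, the anchoring fibril collagen (162 ± 26.4 against 29.4 ± 7.12 CPM).

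TP63, which encodes p63, had 209, 152 and 161 CPM in HCC1806 and 0.947, 1.161 and 0.778 CPM in MDAMB468, a 181-fold difference of means (adjusted p = 9.7e-18). SOX15, a transcription factor of the same epithelia, had 148, 116 and 101 CPM in HCC1806 and 2.08, 2.20 and 1.49 CPM in MDAMB468, a difference of 5.997 ± 0.20 (SE, adjusted p = 3.9e-17). BNC1, the basal-layer zinc finger protein basonuclin, had 92.4, 95.05 and 68.9 CPM in HCC1806 and no count in MDAMB468 (at least 3738-fold higher). PKP1, a desmosomal plaque protein of squamous cells, had 202, 204 and 143 CPM in HCC1806 and 0.492, 0.332 and 0.371 CPM in MDAMB468. KLF5, an epithelial transcription factor, was higher at 282 ± 47.2 against 73.2 ± 20.9 CPM. For each of these genes the groups did not overlap.

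Keratins did not move as a block. KRT6A, a keratin of wounded and hyperproliferative epidermis, had 1637, 2176 and 1769.6 CPM in HCC1806 and 4.32, 1.62 and 2.64 CPM in MDAMB468, but its paralogue KRT6B had 16.4, 22.1 and 13.4 CPM in HCC1806 and 20.04, 12.8 and 14.7 CPM in MDAMB468 and was not called (adjusted p = 0.67). KRT14, the usual partner of KRT5, had 184, 187 and 20.8 CPM in HCC1806 and 21.9, 13.3 and 14.5 CPM in MDAMB468. The third HCC1806 library thus fell within the MDAMB468 range, and the SD of the HCC1806 group (95.02 CPM) was of the size of its mean (131). KRT14 was over 2-fold apart with edgeR (adjusted p = 0.0042) but not with DESeq2 (adjusted p = 0.49). KRT15, KRT16 and KRT17 were lower in HCC1806, at 13.99 ± 5.99 against 84.8 ± 20.1 CPM, 19.3 ± 6.17 against 55.8 ± 18.7 CPM and 196 ± 59.95 against 416 ± 204 CPM, the last with overlapping groups and an adjusted p of 0.044 that DESeq2 did not share (adjusted p = 0.35). Reads of the near-identical KRT6A, KRT6B and KRT6C may have been split among them by the counting.

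Genes of the differentiating layers went both ways. S100A9 and S100A8, the calprotectin subunits, had 3.43, 4.93 and 0.772 CPM in HCC1806 and 418, 259.9 and 241 CPM in MDAMB468 and 0.484, 1.79 and 0 CPM in HCC1806 and 89.9, 49.5 and 46.5 CPM in MDAMB468 respectively. KLK5, a protease that sheds the outermost cells, had 24.0, 28.7 and 16.2 CPM in HCC1806 and 454, 285 and 309.6 CPM in MDAMB468, a difference of -3.93 ± 0.25 (SE, adjusted p = 2.6e-10). All 3 were higher in every MDAMB468 library, as were S100A7 (0.0994 ± 0.0878 against 43.7 ± 23.5 CPM), the envelope precursor involucrin, IVL (4.23 ± 3.23 against 19.6 ± 3.96 CPM), the crosslinking enzyme TGM1 (2.10 ± 0.797 against 10.3 ± 0.754 CPM) and the homeobox factor PITX1 (56.8 ± 5.07 against 135 ± 11.3 CPM). By contrast the small proline-rich envelope genes SPRR1B (7.39, 25.7 and 1.82 CPM in HCC1806 and 0.152, 0.228 and 0.124 CPM in MDAMB468) and SPRR3 (1.23, 6.80 and 0.27 CPM in HCC1806, no count in MDAMB468) were higher in HCC1806, at low levels that varied strongly among its libraries. SPRR3 was not called by DESeq2 (adjusted p = 0.12). S100A2, a p63-associated S100 gene, had 305, 277 and 264 CPM in HCC1806 and 13.3, 8.02 and 8.56 CPM in MDAMB468.

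**Figure D2:**
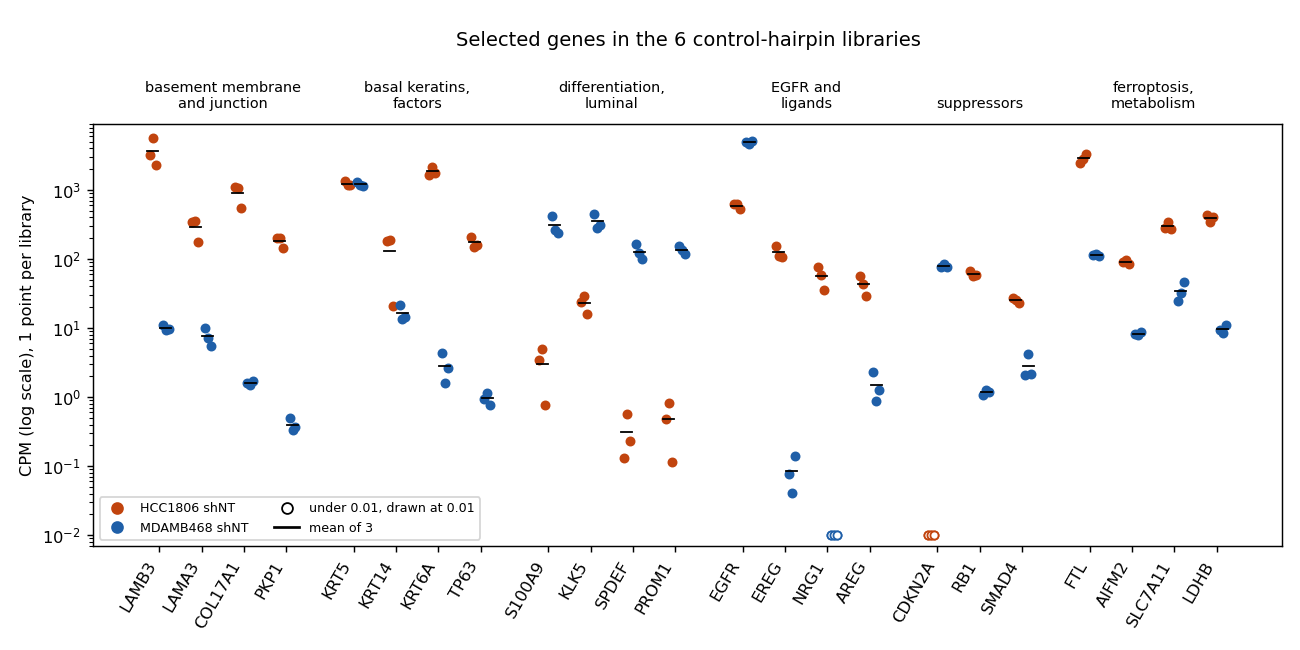
CPM of 23 genes in each of the 6 libraries, on a log axis, in groups by role, with 1 point per library, black bars for means of 3, and open points for values under 0.01 CPM drawn at 0.01. LAMB3, COL17A1, TP63 and EREG lie far above MDAMB468 in all 3 HCC1806 libraries, KRT5 overlaps, and 1 HCC1806 library of KRT14 falls among the MDAMB468 points.

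Promoters of basal and squamous members that were over 2-fold higher were searched for short motifs. Of these 30 members 21 had an entry in the RefSeq promoter table (GRCh38.p14, from 250 bases before to 50 after the gene start), and 7 of the 21 (33.3%) held TGANTCA, the core of the AP-1 site, which reads the same on both strands. Of the other members tested, 20 had an entry and 3 of them (15%) held it. The same letters were in 5.51% of the 13771 promoters of tested genes that had an entry, in 8.14% of the 2126 over 2-fold higher in HCC1806 and in 5.68% of the 1831 over 2-fold lower. A match is a description of letters, not of binding. Below are 3 of them, as the 180 bases before the start, 5′ to 3′ on the strand of the gene, and TGANTCA in capitals. The positions are chr1:153565845-153566024 for S100A2, chr18:23872840-23873019 for LAMA3 and chr1:153031023-153031202 for SPRR1B, with S100A2 on the minus strand and the other two on the plus strand.
S100A2: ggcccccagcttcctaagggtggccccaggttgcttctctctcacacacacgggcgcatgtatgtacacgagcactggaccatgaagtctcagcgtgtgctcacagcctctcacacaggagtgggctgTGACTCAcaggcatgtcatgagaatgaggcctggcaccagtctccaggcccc
LAMA3: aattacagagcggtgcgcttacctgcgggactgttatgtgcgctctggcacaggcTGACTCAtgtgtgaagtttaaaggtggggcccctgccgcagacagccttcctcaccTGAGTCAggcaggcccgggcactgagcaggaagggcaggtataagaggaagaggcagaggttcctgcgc
SPRR1B: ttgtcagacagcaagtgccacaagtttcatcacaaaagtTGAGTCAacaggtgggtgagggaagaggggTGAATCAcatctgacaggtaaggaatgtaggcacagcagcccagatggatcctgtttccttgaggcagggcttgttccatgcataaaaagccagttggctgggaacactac
LAMA3 and SPRR1B each hold 2 copies in this stretch and S100A2 holds 1, and LAMA3 differed by 5.29 ± 0.30 (SE, adjusted p = 4.5e-13) and S100A2 by 4.84 ± 0.29 (SE, adjusted p = 1.6e-12).

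Luminal and secretory genes were split, with 16 of 42 members called lower in HCC1806 and 12 higher, against 29.2% and 33.7% of all genes (median -0.34). SPDEF, a luminal ETS factor, had 0.132, 0.562 and 0.232 CPM in HCC1806 and 163, 122 and 98.4 CPM in MDAMB468, and PROM1, the membrane protein CD133, had 0.484, 0.832 and 0.116 CPM in HCC1806 and 156, 135 and 117 CPM in MDAMB468. Their differences were -8.55 ± 0.37 (SE, adjusted p = 4.2e-15) and -8.17 ± 0.42 (SE, adjusted p = 8.4e-14). KRT23 (0.782 ± 0.27 against 221 ± 33.6 CPM), KRT81, a hair-type keratin (1.60 ± 0.519 against 266 ± 31.1 CPM), the prolactin receptor PRLR (1.36 ± 1.75 against 84.3 ± 4.14 CPM), the mucin MUC1 (1.91 ± 0.823 against 71.2 ± 21.7 CPM) and the surface protein CD24 (83.6 ± 10.3 against 1041 ± 138 CPM) were also higher in MDAMB468. Other mucins were higher in HCC1806: MUC16 had 69.3, 54.6 and 22.7 CPM in HCC1806 and 1.97, 2.11 and 2.03 CPM in MDAMB468 and MUC4 had 15.8, 15.4 and 64.9 CPM in HCC1806 and 0, 0.104 and 0.0531 CPM in MDAMB468. The simple keratins KRT8 and KRT19 were lower in HCC1806 by less than 2-fold (-0.61 and -0.61 on the log2 scale), and GATA3 and FOXA1, luminal transcription factors, were not called (106 ± 8.97 against 86.8 ± 10.1 CPM, and 45.5 ± 9.29 against 71.9 ± 12.2 CPM). ESR1, the oestrogen receptor that defines the receptor-negative class by its absence as protein, had 21.1, 18.0 and 18.0 CPM in HCC1806 and 8.14, 6.72 and 5.68 CPM in MDAMB468.

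Epithelial adhesion genes stayed on in both lines, with CDH1, E-cadherin, at 256, 227 and 270.1 CPM in HCC1806 and 189.8, 189.9 and 185 CPM in MDAMB468. Of 33 members 13 were called higher and 12 lower, against 33.7% and 29.2% of all genes (median 0.19). With at least 10 counts required in every library of the series 14 members remained, and the median was -0.028. CDH3, P-cadherin, was higher in HCC1806 (239 ± 13.6 against 51.0 ± 9.38 CPM), as were the desmosomal cadherin DSG2 (187 ± 10.1 against 65.4 ± 6.79 CPM) and the claudin CLDN1 (132 ± 45.9 against 34.8 ± 5.12 CPM). TJP3, a tight junction scaffold, had 1.76, 1.52 and 3.03 CPM in HCC1806 and 105, 84.6 and 76.6 CPM in MDAMB468, and GRHL1, an epithelial grainyhead factor, had 10.8, 10.9 and 12.8 CPM in HCC1806 and 85.3, 67.9 and 72.8 CPM in MDAMB468. Those 2 were higher in all MDAMB468 libraries, together with CLDN3 (5.42 ± 1.66 against 30.5 ± 4.13 CPM) and the tight junction protein CGN (15.2 ± 2.60 against 57.1 ± 1.15 CPM).

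Mesenchymal genes were called higher in HCC1806 at 24 of 37 members and lower at 4, against 33.7% and 29.2% of all genes. The median log2 difference was 2.02, or 1.73 with the 6 members at 0 in one line held at their bound. SNAI2, the factor Slug, had 54.5, 57.7 and 40.1 CPM in HCC1806 and no count in MDAMB468 (at least 2221-fold). COL6A1, a collagen VI chain, had 85.4, 92.4 and 65.5 CPM against 2 counts, a ratio of 6877 (95% interval 1904 to 56780.0), and COL6A2 had 82.8, 79.5 and 50.5 CPM in HCC1806 and 0.0379, 0 and 0.195 CPM in MDAMB468. CDH2, N-cadherin, had 31.4, 32.5 and 26.1 CPM in HCC1806 and 1.29, 1.35 and 1.18 CPM in MDAMB468, and AXL, a receptor kinase, had 65.7, 55.3 and 29.7 CPM in HCC1806 and 0.909, 0.705 and 0.955 CPM in MDAMB468. The list did not move whole: VIM, vimentin, was not called and its groups overlapped (7.43, 14.8 and 1.68 CPM in HCC1806 and 8.03, 9.16 and 7.25 CPM in MDAMB468, adjusted p = 0.97), and LOXL2, a collagen crosslinker (12.3 ± 3.26 against 47.3 ± 4.26 CPM), and S100A4 (2.12 ± 0.694 against 26.0 ± 6.85 CPM) were lower in HCC1806. In the third HCC1806 library 7 of 25 expressed members were under 0.5 times the other 2, and without that library 24 members were called higher and 4 lower.

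The EGFR family separated into a receptor that was higher in MDAMB468 and ligands that were higher in HCC1806. EGFR, the receptor tyrosine kinase, had 616, 618 and 528 CPM in HCC1806 and 4934, 4658 and 5143 CPM in MDAMB468, an 8.36-fold difference (-3.06 ± 0.09 (SE, adjusted p = 3.1e-18)). ERBB3 was not called (59.9 ± 7.19 against 75.4 ± 9.04 CPM), and ERBB2 was higher in HCC1806 by less than 2-fold, with overlapping groups and a call that was lost without HCC1806 replicate 3 or without MDAMB468 replicate 2 or 3 (100.1 ± 15.6 against 75.9 ± 8.24 CPM). Among the ligands, EREG, epiregulin, had 157, 110.5 and 106 CPM in HCC1806 and 0.0758, 0.0415 and 0.141 CPM in MDAMB468, and AREG, amphiregulin, had 57.2, 43.2 and 28.9 CPM in HCC1806 and 2.31, 0.871 and 1.27 CPM in MDAMB468. NRG1, the neuregulin that binds ERBB3 and ERBB4, had 76.5, 59.6 and 35.2 CPM in HCC1806 and no count in MDAMB468 (at least 2498-fold). TGFA had 218, 238 and 148 CPM in HCC1806 and 34.0, 30.3 and 37.3 CPM in MDAMB468, and HBEGF had 91.5, 92.9 and 45.3 CPM in HCC1806 and 6.14, 3.59 and 5.23 CPM in MDAMB468. No ligand in that group overlapped between the lines.

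BTC, betacellulin, was the ligand that went the other way (0.229 ± 0.211 against 1.49 ± 0.201 CPM), and EGF itself was not called (7.61 ± 1.83 against 11.99 ± 0.306 CPM, adjusted p = 0.07). The feedback inhibitors also split, with LRIG1, which promotes receptor degradation, lower in HCC1806 (9.23, 10.4 and 8.84 CPM in HCC1806 and 80.9, 74.1 and 58.5 CPM in MDAMB468, -2.90 ± 0.27 (SE, adjusted p = 1.9e-09)) and ERRFI1, a kinase inhibitor of EGFR, higher (142 ± 10.0 against 65.9 ± 8.72 CPM). Over the 19 members tested 10 were called higher and 5 lower, against 33.7% and 29.2% of all genes. The median was 1.11, and 0.40 with the 2 members at 0 in one line held at their bound. With at least 10 counts required in every library of the series 9 members remained, and the median was -0.39.

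Neighbours of EGFR on chromosome 7 were also higher in MDAMB468. The stretch from SEC61G to SUMF2 spans chr7:54752250-56080670 in the coordinates of the deposited files. Its 11 consecutive genes with at least 1 CPM in either line were all over 2-fold lower in HCC1806, by 4.02 to 71.2 times. The next such gene on each side, RNU6-1125P (0 against 1.08 ± 0.35 CPM) and PHKG1 (3.26 ± 0.697 against 22.8 ± 4.08 CPM), was over 2-fold lower too. These ends are therefore not the bounds of the pattern. SEC61G, a subunit of the protein translocation channel, had 23.9, 21.5 and 19.8 CPM in HCC1806 and 638, 650.4 and 864 CPM in MDAMB468, LANCL2 had 19.2, 20.1 and 19.2 CPM in HCC1806 and 947, 981 and 953 CPM in MDAMB468, and VOPP1 had 33.6, 28.6 and 38.7 CPM in HCC1806 and 905, 886 and 952 CPM in MDAMB468. PSPH, which completes serine synthesis (26.4 ± 6.88 against 188 ± 2.86 CPM), and CCT6A lie in the same stretch. The genes were noticed after their values were seen, so the stretch carries no test of its own, and copy number was not measured here. MDAMB468 is known for amplification of EGFR.

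Tumour suppressors as a list stood near the background of 33.7% and 29.2%, with 9 of 25 called higher and 10 lower (median -0.12). Single members differed by more than 4-fold. CDKN2A, which encodes p16 and ARF, had no count in any HCC1806 library and 75.7, 83.8 and 77.0 CPM in MDAMB468. CDKN2B, the neighbouring p15 gene, had none either and 34.5, 44.8 and 40.04 CPM. These were at least 3222-fold and 1626-fold lower. MTAP, the next expressed gene with a symbol on that side, was on in both (49.96, 40.6 and 42.0 CPM in HCC1806 and 48.6, 51.7 and 51.0 CPM in MDAMB468, adjusted p = 0.14), and on the other side ELAVL2 was too (6.39 ± 0.928 against 8.56 ± 0.726 CPM). The run of neighbouring genes at 0 counts in HCC1806 held 4 genes expressed in MDAMB468, within chr9:21802636-22046901. The first of them, which has no symbol, overlaps MTAP, so that interval is not free of reads in HCC1806. The region is one of the most often deleted in cancer, and DNA was not measured here.

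RB1, the retinoblastoma protein, had 66.9, 56.5 and 59.1 CPM in HCC1806 and 1.06, 1.29 and 1.18 CPM in MDAMB468, a difference of 5.67 ± 0.13 (SE, adjusted p = 1.4e-19). Expressed neighbours from LRCH1 to FNDC3A were lower in MDAMB468 as well. By less than RB1, ITM2B had 121 ± 17.9 against 42.2 ± 1.25 CPM, MED4 had 23.3 ± 1.39 against 9.41 ± 0.066 CPM and FNDC3A had 134 ± 8.21 against 43.7 ± 3.49 CPM. LPAR6, which lies within RB1, had no count in MDAMB468 (at least 155-fold lower). Beyond FNDC3A the pattern ended. CDADC1 was 1.38-fold lower in MDAMB468, CAB39L was not called (5.62 ± 0.213 against 6.71 ± 0.847 CPM), and SETDB2 was higher in MDAMB468 (6.13 ± 0.515 against 10.9 ± 0.224 CPM). SMAD4, the shared mediator of TGF-beta signalling, had 27.2, 25.8 and 22.98 CPM in HCC1806 and 2.12, 4.19 and 2.18 CPM in MDAMB468, a difference of 3.14 ± 0.18 (SE, adjusted p = 5.2e-13), while its neighbours ME2 (19.7 ± 3.01 against 47.6 ± 2.86 CPM) and MBD2 (34.8 ± 3.71 against 80.3 ± 3.36 CPM) were higher in MDAMB468. BRCA1, a DNA repair protein, was not called (58.5 ± 6.29 against 68.0 ± 2.97 CPM). TGFBR2 and SMAD3, the receptor and a partner of SMAD4, were higher in HCC1806 (145 ± 21.7 against 43.7 ± 1.41 CPM, and 151 ± 12.97 against 56.0 ± 2.32 CPM).

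**Figure D3:**
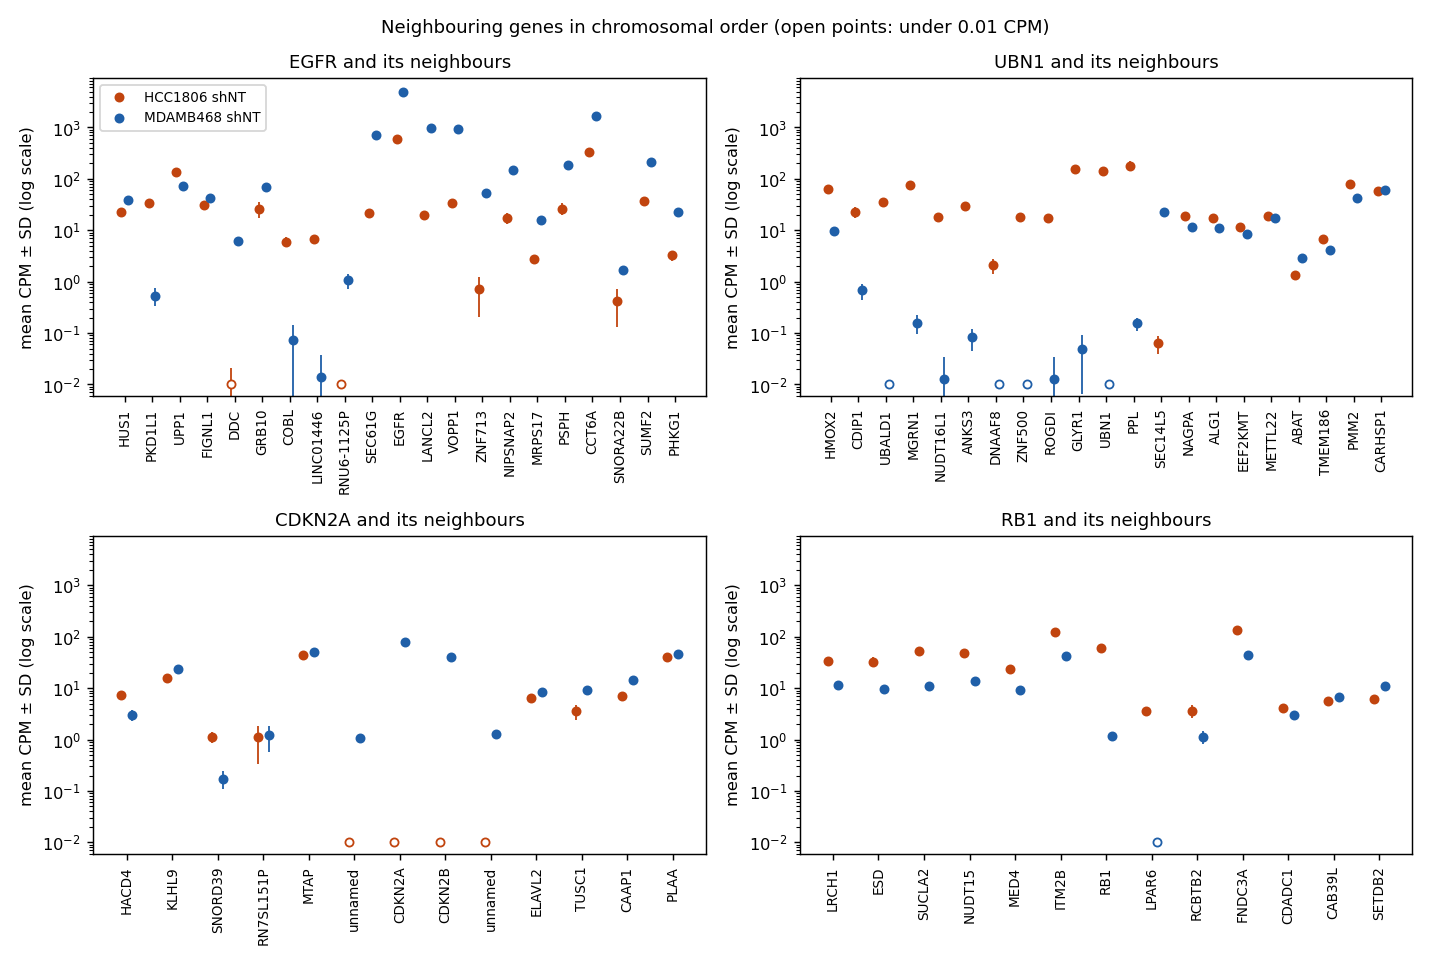
Mean CPM of HCC1806 and MDAMB468 shNT libraries (log axis, bars SD, n = 3) for genes with at least 1 CPM in either line, in chromosomal order around EGFR, UBN1, CDKN2A and RB1, with open points under 0.01 CPM. From SEC61G to the right of EGFR all genes are higher in MDAMB468, from CDIP1 to PPL around UBN1 it is at or near 0, and CDKN2A and CDKN2B are at 0 in HCC1806 between MTAP and ELAVL2, which are not.

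Cell cycle and E2F target genes were called higher at 16 of 44 and lower at 18, against 33.7% and 29.2% of all genes. Their median was -0.011, a sign that turned in 3 of the 14 alternative settings. CDK6, a kinase that inactivates the RB1 protein, had 275, 258 and 179 CPM in HCC1806 and 53.3, 47.8 and 59.1 CPM in MDAMB468, and CCND1, its cyclin, had 592, 519.8 and 435 CPM in HCC1806 and 223, 229.7 and 264 CPM in MDAMB468. E2F1 and E2F2, the transcription factors that RB1 restrains, went the other way, at 38.5, 38.6 and 40.7 CPM in HCC1806 and 96.0, 94.5 and 85.1 CPM in MDAMB468 and 28.6, 23.3 and 29.4 CPM in HCC1806 and 138, 139 and 129.8 CPM in MDAMB468. All 4 pairs of groups were separate. MKI67, a proliferation marker, had 1665, 1219 and 1231 CPM in HCC1806 and 766, 815 and 845 CPM in MDAMB468. Of DNA synthesis genes, PCNA and TYMS were lower in HCC1806 (86.4 ± 12.8 against 226 ± 12.1 CPM, and 25.6 ± 4.56 against 71.3 ± 2.06 CPM), TK1 was higher (187 ± 19.1 against 66.7 ± 4.15 CPM), and TOP2A, CDK1 and CCNB1 were not called.

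ADAR, the gene that the series' hairpin targets, had 370.4, 334 and 358 CPM in HCC1806 and 408, 397 and 444 CPM in MDAMB468 in these control libraries and was not called (-0.23 ± 0.14 (SE, adjusted p = 0.16)). The groups did not overlap, and a fit of the 6 shNT libraries alone gave an adjusted p of 0.017. In the shADAR1 libraries its mean was 117 CPM in HCC1806 and 155 CPM in MDAMB468. ADARB1, the second editing enzyme, was lower in HCC1806 (25.3 ± 4.11 against 46.4 ± 2.47 CPM), and ADARB2, a family member with no known editing activity, was higher from a low level (5.24 ± 3.10 against 0.0256 ± 0.0224 CPM).

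Sensors of double-stranded RNA are kept from reacting to the cell's own RNA by ADAR1 editing. Of 24 editing and sensor genes 13 were called higher and 6 lower, against 33.7% and 29.2% of all genes (median 0.37). EIF2AK2, the kinase PKR, had 322, 313 and 304 CPM in HCC1806 and 199.7, 216 and 249.8 CPM in MDAMB468, 0.50 ± 0.10 (SE, adjusted p = 0.00012). OAS3, which activates RNase L, had 262, 232 and 214 CPM in HCC1806 and 36.3, 37.0 and 39.8 CPM in MDAMB468, and OAS2 had 22.4, 13.98 and 8.26 CPM in HCC1806 and 0.265, 0.207 and 0.849 CPM in MDAMB468. RIGI, which encodes RIG-I, was higher (22.1 ± 3.15 against 12.04 ± 0.905 CPM), and IFIH1, which encodes MDA5, was lower (12.2 ± 2.85 against 20.6 ± 1.70 CPM), as was MAVS, the adaptor of both (177, 168 and 171 CPM in HCC1806 and 261, 265 and 249.4 CPM in MDAMB468). PRKRA, an activator of PKR, was higher (116 ± 14.1 against 41.6 ± 2.09 CPM). In the third HCC1806 library 5 of 23 expressed members of the list were under 0.5 times the other 2.

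Interferon-stimulated genes were divided, with 19 of 44 called higher and 14 lower, against 33.7% and 29.2% of all genes (median 0.17). With at least 10 counts required in every library of the series 33 members remained, and the median was -0.015. MX2, an antiviral GTPase, had 81.7, 78.1 and 75.9 CPM in HCC1806 and 0.53, 0.415 and 0.531 CPM in MDAMB468, and SAMD9L had 29.6, 26.2 and 23.7 CPM in HCC1806 and 0.53, 0.332 and 0.867 CPM in MDAMB468. ISG15, the ubiquitin-like modifier, had 39.4, 38.7 and 46.9 CPM in HCC1806 and 11.1, 7.34 and 7.82 CPM in MDAMB468, and IFIT1 had 22.2, 9.07 and 7.13 CPM in HCC1806 and 0.152, 0.85 and 0.814 CPM in MDAMB468. Lower in HCC1806 were the guanylate-binding protein GBP2 (2.02, 0.686 and 0.676 CPM in HCC1806 and 20.9, 14.4 and 10.9 CPM in MDAMB468), the death ligand TNFSF10 (3.47, 1.98 and 2.43 CPM in HCC1806 and 22.1, 23.5 and 15.05 CPM in MDAMB468) and the factor IRF1 (25.6 ± 8.17 against 72.3 ± 17.7 CPM). STAT2, which carries the interferon signal, was not called (49.0 ± 8.84 against 47.6 ± 2.86 CPM). The third HCC1806 library was under 0.5 times the other 2 at 9 of 40 expressed members, and without it 19 members were called higher and 10 lower.

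Antigen presentation genes of MHC class I were called higher at 11 of 21 and lower at 5 (median 0.33). The shares over all genes were 33.7% and 29.2%. The chaperones CALR (2433 ± 79.3 against 1001 ± 93.1 CPM) and PDIA3 (1271, 1218 and 1363 CPM in HCC1806 and 229, 252 and 301 CPM in MDAMB468), B2M, the invariant light chain (362, 311 and 247 CPM in HCC1806 and 133, 118 and 137 CPM in MDAMB468), and TAP2, a peptide transporter subunit (49.9 ± 7.38 against 18.3 ± 1.51 CPM), were over 2-fold higher. ERAP1, which trims peptides (41.4 ± 7.11 against 75.0 ± 0.921 CPM), and the immunoproteasome subunits PSMB8 and PSMB10 were lower. CD274, the checkpoint ligand PD-L1, had 6.07, 13.5 and 7.07 CPM in HCC1806 and 0.795, 0.394 and 0.76 CPM in MDAMB468. Values of single HLA genes are uncertain because they share reads.

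Cytokine genes leaned towards HCC1806. Of 38 cytokine and receptor genes 24 were called higher and 8 lower, against 33.7% and 29.2% of all genes (median 1.72). IL1A had 82.2, 78.9 and 49.7 CPM in HCC1806 and 0.758, 0.622 and 0.354 CPM in MDAMB468, CXCL1 had 57.3, 67.8 and 21.1 CPM in HCC1806 and 0, 0.249 and 0.177 CPM in MDAMB468, and CXCL8 had 72.5, 69.5 and 40.4 CPM in HCC1806 and 1.59, 0.829 and 2.55 CPM in MDAMB468. TNFAIP3, an NF-kappaB target that damps the pathway, had 242, 255 and 83.4 CPM in HCC1806 and 27.0, 12.3 and 14.1 CPM in MDAMB468, and ACKR3, an atypical chemokine receptor, had 19.3, 16.7 and 12.1 CPM in HCC1806 and no count in MDAMB468. CX3CL1, the membrane-bound chemokine fractalkine, was lower in HCC1806, with 0, 0.0832 and 0.0579 CPM in HCC1806 and 109.9, 68.8 and 63.2 CPM in MDAMB468. LIF (8.44 ± 3.21 against 114 ± 98.5 CPM), IL1R1 (2.30 ± 0.707 against 17.4 ± 3.20 CPM) and CSF1 (16.9 ± 3.63 against 57.1 ± 7.83 CPM) were also higher in MDAMB468. In the third HCC1806 library 6 of 28 expressed members were under 0.5 times the other 2, and without it 23 members were called higher and 8 lower.

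MDM2, the ubiquitin ligase that the series' title names, had 76.8, 66.8 and 74.6 CPM in HCC1806 and 69.3, 72.0 and 71.5 CPM in MDAMB468. The groups overlapped and it was not called (0.04 ± 0.12 (SE, adjusted p = 0.82)), with an estimate whose sign turned under 3 alternative settings. MDM4, its partner, was lower in HCC1806 by less than 2-fold (86.5 ± 8.15 against 109.6 ± 4.86 CPM). Around them 18 of 29 genes, made up of MDM2, MDM4 and genes of the DNA damage response, were called higher and 8 lower (median 0.48). The shares over all genes were 33.7% and 29.2%. CDKN1A, which encodes p21, had 194, 261 and 119 CPM in HCC1806 and 32.9, 16.5 and 27.5 CPM in MDAMB468, BTG2, an antiproliferative gene, had 27.7, 26.0 and 22.9 CPM in HCC1806 and 3.14, 2.92 and 3.01 CPM in MDAMB468, and FAS, the death receptor, had 18.9, 14.4 and 10.4 CPM in HCC1806 and 1.10, 2.14 and 1.29 CPM in MDAMB468. CCNG1 (27.4 ± 6.67 against 72.9 ± 2.99 CPM) and the repair polymerase POLH (19.1 ± 1.53 against 33.0 ± 2.14 CPM) were lower in HCC1806.

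Ferroptosis, the iron-dependent death by lipid peroxidation that the title also names, is held back by glutathione, iron storage and lipid radical traps. Of 36 defence genes 20 were called higher in HCC1806 and 9 lower, against 33.7% and 29.2% of all genes (median 0.45). FTL, the ferritin light chain, had 2459, 2806 and 3319 CPM in HCC1806 and 113, 120.0 and 109 CPM in MDAMB468, a difference of 4.65 ± 0.18 (SE, adjusted p = 6.3e-16), while FTH1, the heavy chain, had 661, 799 and 941 CPM in HCC1806 and 633, 622 and 645 CPM in MDAMB468 and was not called (adjusted p = 0.071). SLC7A11, the cystine importer, had 281, 346 and 268 CPM in HCC1806 and 24.9, 32.2 and 45.8 CPM in MDAMB468, and AIFM2, the ubiquinone reductase FSP1, had 90.4, 96.2 and 83.4 CPM in HCC1806 and 8.11, 7.98 and 8.81 CPM in MDAMB468. GPX4, the lipid peroxidase at the centre of the pathway, was higher by less than 2-fold (175, 149.7 and 162 CPM in HCC1806 and 91.6, 88.7 and 74.0 CPM in MDAMB468, 0.94 ± 0.12 (SE, adjusted p = 6.5e-07)). AKR1C1 and AKR1C3, which reduce lipid aldehydes, were higher (255 ± 23.8 against 26.4 ± 5.74 CPM, and 82.3 ± 17.7 against 5.43 ± 1.86 CPM), together with TXNRD1 (859 ± 97.5 against 257 ± 21.8 CPM) and NFE2L2, which encodes NRF2 (269 ± 44.2 against 117 ± 7.71 CPM). AKR1C copies and FTL, which has many processed pseudogenes, may share reads with other copies.

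Defence genes that were higher in MDAMB468 included PROM2, which exports ferritin in vesicles (20.9, 18.5 and 35.6 CPM in HCC1806 and 217, 171 and 161 CPM in MDAMB468), and NUPR1, a stress factor (5.01, 6.10 and 3.22 CPM in HCC1806 and 64.8, 60.4 and 59.4 CPM in MDAMB468). DHCR7, of sterol synthesis, was higher in MDAMB468 too (204 ± 11.8 against 344 ± 18.1 CPM), but no defence role is claimed for it here. NQO1 and GCLM were not called. Of 33 genes that favour ferroptosis 19 were called higher and 6 lower, against 33.7% and 29.2% of all genes (median 0.57). FADS1, a fatty acid desaturase, had 87.3, 69.1 and 92.9 CPM in HCC1806 and 7.92, 9.58 and 9.002 CPM in MDAMB468, and FAR1, of ether lipid synthesis, had 187, 164 and 216 CPM in HCC1806 and 29.5, 29.1 and 36.0 CPM in MDAMB468. ACSL4, which loads polyunsaturated fatty acids into phospholipids, was higher by less than 2-fold (45.3, 52.9 and 42.4 CPM in HCC1806 and 24.3, 23.2 and 24.3 CPM in MDAMB468, 0.97 ± 0.11 (SE, adjusted p = 8.4e-08)), as was TFRC, the transferrin receptor (525 ± 47.3 against 352 ± 31.5 CPM). SAT1, of polyamine breakdown, was lower in HCC1806 (77.7, 48.3 and 54.9 CPM in HCC1806 and 474, 173 and 261 CPM in MDAMB468).

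Lipid genes were called higher at 29 of 69 and lower at 22 (median 0.15), close to the background of 33.7% and 29.2%. The core synthesis genes FASN (1339.5 ± 50.3 against 1236 ± 67.6 CPM) and ACLY (319 ± 5.60 against 329.5 ± 17.8 CPM) were not called, nor was SCD (722 ± 51.4 against 539.7 ± 84.6 CPM). Its paralogue SCD5 had 5.19, 3.68 and 5.70 CPM in HCC1806 and 65.5, 62.2 and 69.3 CPM in MDAMB468. LPCAT4, an acyltransferase of phospholipid remodelling, had 81.6, 60.04 and 76.8 CPM in HCC1806 and 8.18, 7.94 and 7.13 CPM in MDAMB468, FABP5, a fatty acid carrier, had 49.1, 43.3 and 56.4 CPM in HCC1806 and 0.53, 0.415 and 0.177 CPM in MDAMB468, and DGAT1 and DGAT2, which both make triglyceride, went in opposite directions (89.3 ± 7.22 against 23.6 ± 3.40 CPM, and 2.90 ± 0.942 against 20.9 ± 5.55 CPM). ACSL1, which activates long-chain fatty acids, was lower in HCC1806 (15.8, 17.7 and 14.7 CPM in HCC1806 and 87.5, 79.1 and 76.3 CPM in MDAMB468), and GPAT3 was higher (35.1 ± 5.46 against 1.86 ± 0.787 CPM).

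Integrated stress response genes were called higher at 14 of 28 and lower at 11, against 33.7% and 29.2% of all genes (median 0.20). ATF4, the central transcription factor, had 339, 415 and 333 CPM in HCC1806 and 621, 620.4 and 679 CPM in MDAMB468 and was lower in HCC1806, whereas DDIT3, which encodes CHOP, had 24.6, 35.1 and 31.9 CPM in HCC1806 and 4.74, 6.01 and 11.4 CPM in MDAMB468 and was higher. DDIT4, an mTORC1 inhibitor, had 186, 142 and 244 CPM in HCC1806 and 35.4, 28.8 and 43.2 CPM in MDAMB468, SLC7A5, a neutral amino acid transporter, had 1704, 1781 and 2159.9 CPM in HCC1806 and 544, 587 and 729 CPM in MDAMB468, and PPP1R15A, which reverses eIF2alpha phosphorylation, had 452, 626 and 584 CPM in HCC1806 and 117, 75.1 and 110.3 CPM in MDAMB468. Serine synthesis leaned the other way, with PHGDH, its first enzyme, at 103, 116 and 135 CPM in HCC1806 and 427, 431 and 465 CPM in MDAMB468, and PSPH, within the EGFR stretch, at 22.8, 22.1 and 34.4 CPM in HCC1806 and 190.0, 190.2 and 185 CPM in MDAMB468. PSAT1, the middle enzyme, was not called (99.6 ± 7.64 against 101 ± 15.7 CPM). VLDLR, a lipoprotein receptor and ATF4 target, was lower in HCC1806 (3.78, 3.08 and 3.86 CPM in HCC1806 and 37.2, 30.3 and 34.6 CPM in MDAMB468).

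Glycolysis and hypoxia genes had the highest share called higher of all 20 lists, at 25 of 36, against 33.7% of all genes. Another 5 were called lower, against 29.2% of all genes, and the median was 1.23. LDHB, a lactate dehydrogenase subunit, had 431, 349 and 412 CPM in HCC1806 and 9.39, 8.52 and 11 CPM in MDAMB468, a difference of 5.36 ± 0.16 (SE, adjusted p = 4.1e-18), and LDHA had 1254, 934 and 806 CPM in HCC1806 and 387, 259.8 and 299 CPM in MDAMB468. SLC16A3, the lactate exporter MCT4, had 139, 161 and 130.3 CPM in HCC1806 and 4.05, 4.58 and 3.31 CPM in MDAMB468, and SLC16A1, or MCT1, had 199.9, 179 and 177 CPM in HCC1806 and 29.8, 26.0 and 34.3 CPM in MDAMB468. The glycolytic enzymes ENO1 (2382 ± 102 against 777 ± 31.1 CPM), TPI1 (446 ± 18.8 against 85.4 ± 1.77 CPM) and PFKP (359 ± 9.48 against 119.7 ± 11.3 CPM) were over 2-fold higher, and PGK1, HK1 and HK2 were not called. Over the list 17 members were over 2-fold higher and 2 lower, against 15.6% and 12.9% of all genes, and hypoxia markers were not counted apart. Single hypoxia markers went both ways: CA9, carbonic anhydrase IX, had 1.85, 0.374 and 0.637 CPM in HCC1806 and 10.5, 7.28 and 6.37 CPM in MDAMB468, and EGLN3, an oxygen-sensing hydroxylase, had 7.08, 6.34 and 6.43 CPM in HCC1806 and 34.1, 37.7 and 35.3 CPM in MDAMB468, both lower in HCC1806, while NDRG1 had 343, 296 and 361 CPM in HCC1806 and 16.8, 15.8 and 14.5 CPM in MDAMB468. PFKL was also lower (155 ± 13.7 against 218 ± 16.3 CPM).

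**Figure D4:**
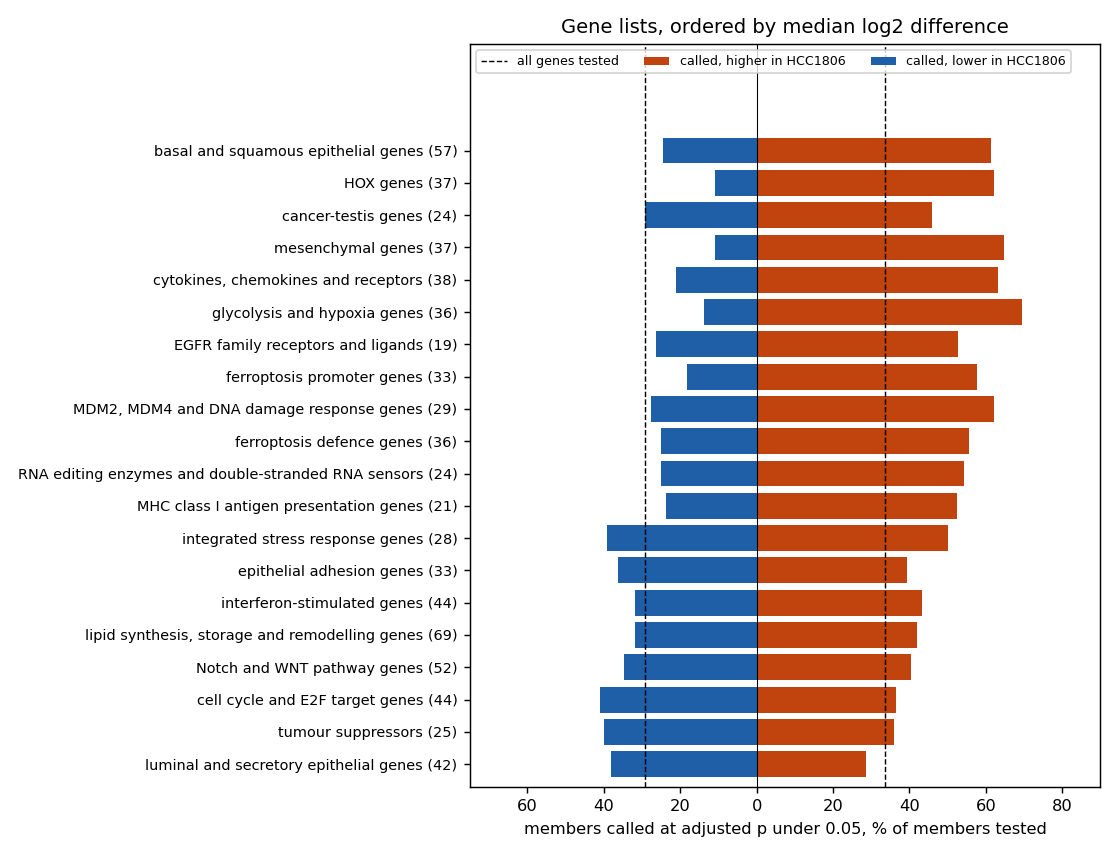
Share of the tested members of 20 gene lists (number in brackets) that were called at adjusted p under 0.05, to the right where HCC1806 was higher and to the left where it was lower, with dashed lines at 33.7% and 29.2% for all genes tested. Glycolysis and hypoxia genes extend furthest to the right, and the tumour suppressor, cell cycle and luminal lists extend further left than right.

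Genes that record a cell's developmental origin also differed. Of 37 HOX genes, which set position along the body axis, 23 were called higher in HCC1806 and 4 lower (median 2.39). The shares over all genes were 33.7% and 29.2%. The HOXD cluster was at or near 0 in MDAMB468: HOXD13 had 11.2, 8.28 and 8.05 CPM in HCC1806 and no count in MDAMB468, and HOXD10 had 20.8, 15.4 and 21.1 CPM against 3 counts, a ratio of 505 (95% interval 173 to 2448). HOXA11 (17.4, 21.4 and 20.1 CPM in HCC1806 and 0.568, 0.767 and 0.566 CPM in MDAMB468) and HOXB9 (13.6, 12.8 and 11.8 CPM in HCC1806 and 0.114, 0.145 and 0.23 CPM in MDAMB468) were higher as well. HOXC genes did not follow, with HOXC10 at 36.4, 33.0 and 37.6 CPM in HCC1806 and 30.1, 29.6 and 28.9 CPM in MDAMB468 (adjusted p = 0.41) and HOXC4 and HOXB4 lower in HCC1806 (0.733 ± 0.3 against 2.86 ± 0.831 CPM, and 1.10 ± 0.499 against 7.24 ± 1.35 CPM). With at least 10 counts required in every library of the series 5 HOX genes remained, and the median was -0.72.

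Cancer-testis genes, normally limited to the germ line, were on in both lines. PRAME had 31.3, 30.0 and 18.9 CPM in HCC1806 and no count in MDAMB468, and MAGEA4 had 72.8, 80.4 and 72.2 CPM in HCC1806 and 0.682, 0.332 and 0.283 CPM in MDAMB468. MAGEA3 was expressed in both and lower in HCC1806 (49.4, 58.1 and 56.3 CPM in HCC1806 and 153, 163 and 169.8 CPM in MDAMB468), and ACTL8 was low (0.0139 ± 0.024 against 0.884 ± 0.407 CPM). Of 24 tested 11 were called higher and 7 lower, against 33.7% and 29.2% of all genes. Their median was 2.08, or 1.23 with genes at 0 held at their bound. Reads of MAGEA3 and MAGEA6, which are near-identical, cannot be assigned safely.

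Notch and WNT genes were called higher at 21 of 52 and lower at 18, against 33.7% and 29.2% of all genes. Their median of 0.010 turned sign in 8 of the 14 alternative settings. NOTCH3 had 142, 85.8 and 212 CPM in HCC1806 and 1343, 1234 and 1184 CPM in MDAMB468, a difference of -3.09 ± 0.47 (SE, adjusted p = 4.1e-06). Of the 5 DLL and JAG ligands in the list, DLL1 (72.7, 63.5 and 44.9 CPM in HCC1806 and 0.189, 0.477 and 0.442 CPM in MDAMB468), JAG2 (159.9 ± 25.4 against 14.5 ± 0.841 CPM), JAG1 (227 ± 50.1 against 87.4 ± 11.7 CPM) and DLL4 (6.68 ± 3.78 against 0.989 ± 0.34 CPM) were called higher in HCC1806. DLL3 was called lower (1.199 ± 0.366 against 3.46 ± 0.271 CPM). WNT ligands differed in kind, with WNT7A at 57.3, 45.4 and 33.7 CPM in HCC1806 and no count in MDAMB468, and WNT6 at 0.616, 2.37 and 2.57 CPM in HCC1806 and 109, 108 and 100.3 CPM in MDAMB468. The WNT antagonists split too, SFRP1 with 7.56, 8.05 and 7.55 CPM in HCC1806 and 182, 132 and 161 CPM in MDAMB468 and DKK1 with 305, 296 and 190.2 CPM in HCC1806 and 9.09, 13.1 and 12.2 CPM in MDAMB468, as did the receptor FZD8 (58.0, 72.4 and 50.8 CPM in HCC1806 and 0.568, 0.933 and 0.707 CPM in MDAMB468) and the feedback inhibitor NKD1 (1.87 ± 0.234 against 47.0 ± 6.29 CPM).

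Differences were not spread evenly along the genome. Over 15065 genes with a mean of at least 1 CPM in either line, windows of 25 consecutive genes had medians whose 5th and 95th percentiles were -1.03 and 1.06. The 6 windows below were chosen as the highest and lowest, so their values are descriptions. The lowest lay on chromosome 19, chr19:19645198-22667670, with a median of -4.16 and 20 of 25 genes over 2-fold lower in HCC1806 and none higher. The next was on the same chromosome at chr19:36604817-37692337, with a median of -4.09 and all 25 genes over 2-fold lower. The third lay at chr16:50548330-55706192, with a median of -3.19, and holds IRX3 (13.7 ± 2.02 against 125 ± 7.97 CPM), IRX5 (2.39 ± 0.237 against 95.3 ± 8.03 CPM) and NKD1. One gene in it, MMP2, a gelatinase, was over 2-fold higher in HCC1806 (29.2 ± 9.89 against 2.55 ± 0.418 CPM).

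Both chromosome 19 windows consist mainly of KRAB zinc finger genes, the large family of DNA-binding repressors that silence transposable elements. ZNF382 had 0, 0.0416 and 0 CPM in HCC1806 and 13.1, 12.4 and 15.4 CPM in MDAMB468, ZNF569 had 1.63, 0.915 and 1.18 CPM in HCC1806 and 23.03, 19.1 and 27.8 CPM in MDAMB468, ZNF43 had 0.176, 0.0416 and 0 CPM in HCC1806 and 25.4, 31.5 and 30.7 CPM in MDAMB468 and ZNF85 had 0.088, 0 and 0.0579 CPM in HCC1806 and 7.65, 9.45 and 8.42 CPM in MDAMB468. LINC00665, a long non-coding RNA of the same chromosome, had 0, 0.0832 and 0.0193 CPM in HCC1806 and 94.7, 98.0 and 106 CPM in MDAMB468. Over the 252 genes of chromosome 19 with a ZNF, ZFP or ZSCAN symbol, 94 were over 2-fold lower in HCC1806 and 15 higher, with a median of -0.70. Over the 276 such genes elsewhere the counts were 46 and 34, with a median of -0.11. Low levels in HCC1806 were not shared by the whole chromosome, since the window at its end, chr19:58229465-58558960, had 23 of 25 genes over 2-fold higher in HCC1806 (median 2.00), among them TRIM28, the corepressor that KRAB zinc finger proteins recruit (3051 ± 112 against 768 ± 9.73 CPM). Zinc finger genes in clusters share sequence, and counting may have split their reads.

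**Figure D5:**
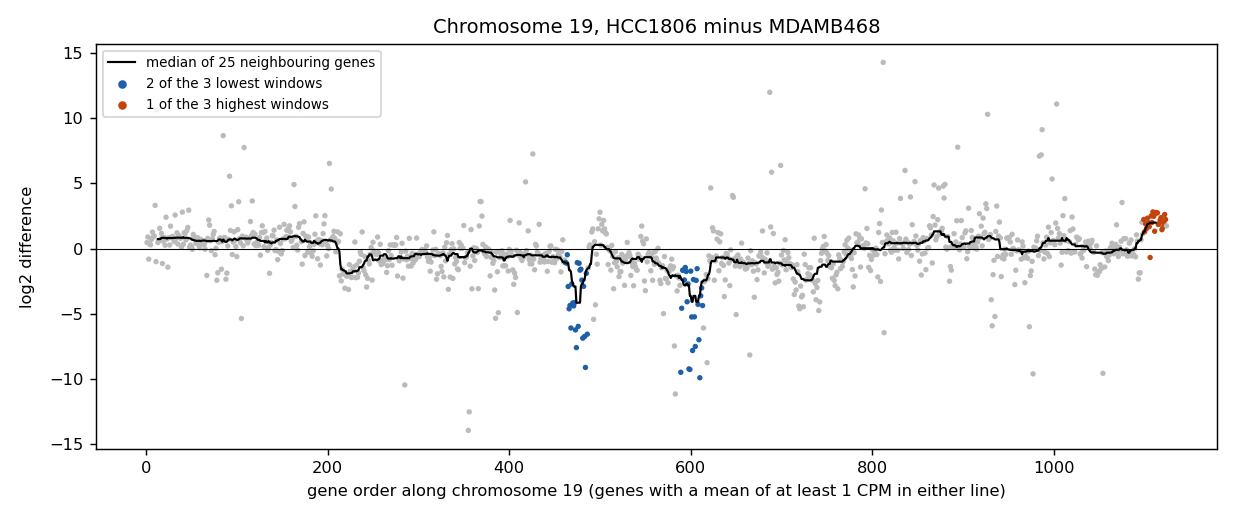
Log2 difference of each chromosome 19 gene with a mean of at least 1 CPM in either line, in gene order, with the running median of 25 genes as a line and the selected windows in colour. The 2 blue windows of zinc finger genes fall to medians near -4 and the red window at the end of the chromosome rises to 2.00, and points beyond about 10 rest on few or no counts in one line.

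The other high windows lay on chromosome 5, chr5:10275875-27496401, with a median of 3.45 and 15 of 25 genes over 2-fold higher, and on chromosome 8, chr8:129939856-142614472, with a median of 2.14 and 17 of 25. They hold MYO10, a filopodial myosin (1002 ± 122 against 361 ± 17.8 CPM), and TRIO, a guanine nucleotide exchange factor (728 ± 89.3 against 388 ± 10.1 CPM), on chromosome 5, and AGO2, the slicer of RNA interference (459 ± 74.3 against 104 ± 3.55 CPM), PTK2, focal adhesion kinase (373 ± 27.4 against 80.7 ± 1.43 CPM), and NDRG1 on chromosome 8. MYO10 and TRIO differed by 1.47 and 0.91 on the log2 scale, below their window's median, and TRIO was not over 2-fold apart. CDH18, of the same window, differed by 6.13 (43.7 ± 3.31 against 0.632 ± 0.205 CPM). By whole chromosome, 33.9% of chromosome 8 genes, 27.3% of chromosome 12 genes and 27.3% of chromosome 13 genes were over 2-fold higher in HCC1806, against 16.9% of all genes in the windows. On chromosome 18 29.8% and on chromosome 19 23.2% were over 2-fold lower, against 14.4% overall.

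Short runs of neighbouring genes were silent or nearly silent in one line only. On chromosome 16, chr16:4510675-4960741, 11 consecutive expressed genes from CDIP1 to PPL were over 2-fold higher in HCC1806, and no gene of the run passed 0.675 CPM on average in MDAMB468. Its ends were chosen after the values were seen. In MDAMB468 the 5 genes from DNAAF8 to UBN1 had at most 6 counts each, and CDIP1 had 93. UBN1 had 133, 156 and 144 CPM in HCC1806 and 0, 0 and 0 CPM in MDAMB468, GLYR1, a nucleosome-associated oxidoreductase homologue, had 152, 156 and 150.0 CPM in HCC1806 and 0.0758, 0 and 0.0707 CPM in MDAMB468, and PPL, the cornified envelope protein periplakin, had 201, 139 and 205 CPM in HCC1806 and 0.189, 0.166 and 0.106 CPM in MDAMB468. On either side HMOX2 (64.1 ± 9.14 against 9.505 ± 1.11 CPM) and NAGPA (19.4 ± 3.22 against 11.7 ± 1.01 CPM) were expressed in MDAMB468, and UBN1 was at 135 and 154 CPM in the control libraries of the series' other lines, BT549 and MDAMB231. SEC14L5, at the far edge of the run, was the reverse (0.063 ± 0.0247 against 23.04 ± 1.24 CPM).

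RIC8A, a chaperone of G protein alpha subunits near the end of chromosome 11, had 1 count in HCC1806 and 90.8, 91.2 and 92.5 CPM in MDAMB468, a ratio of 13190.0 (95% interval 2368 to 521200.0). It was at 145 CPM in BT549 and 180.5 CPM in MDAMB231. Its neighbours BET1L (1.19 ± 0.648 against 38.4 ± 4.07 CPM) and SIRT3 (2.50 ± 0.0631 against 9.36 ± 1.03 CPM) were lower in HCC1806 as well, while PSMD13 was slightly higher (76.9 ± 0.683 against 63.4 ± 2.74 CPM). Of runs of at least 4 neighbouring genes with no more than 10 counts each in one line, 15 were found, 13 of them silent in MDAMB468. They included the HOXD cluster, a myosin heavy chain cluster on chromosome 17 from MYH13 to MYH2, a group on chromosome 15 with the imprinted genes NDN and SNRPN, and 5 ARMCX genes on chromosome X. Whether DNA was lost or silenced at any of these places was not measured.

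Promoter composition was set beside these patterns. The ratio of CpG dinucleotides to the number that base composition would give had a median of 0.798 over 13771 promoters, 0.753 for genes over 2-fold higher in HCC1806, 0.744 for those over 2-fold lower, and 0.817 for the rest. For genes with at least 10 CPM in HCC1806 and no more than 3 counts in MDAMB468 it was 0.735 (90 promoters). For the reverse it was 0.6575 (14 promoters). The basal and squamous members over 2-fold higher had 0.414 (21 promoters) and the other members tested 0.309 (20 promoters). A low ratio was thus not particular to the members higher in HCC1806. The 2 low chromosome 19 windows had 0.593 (43 promoters). Below are the 180 bases before each start, with CG in capitals, at chr12:21657843-21658022 (LDHB), chr20:23637956-23638135 (CST3), chr9:21995325-21995504 (CDKN2A) and chr19:36605133-36605312 (ZNF382), each 5′ to 3′ on the strand of the gene, which is plus for ZNF382 and minus for the others.
LDHB: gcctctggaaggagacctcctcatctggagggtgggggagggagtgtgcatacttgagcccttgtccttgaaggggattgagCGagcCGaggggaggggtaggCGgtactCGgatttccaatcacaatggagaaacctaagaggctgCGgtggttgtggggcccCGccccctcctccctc
CST3: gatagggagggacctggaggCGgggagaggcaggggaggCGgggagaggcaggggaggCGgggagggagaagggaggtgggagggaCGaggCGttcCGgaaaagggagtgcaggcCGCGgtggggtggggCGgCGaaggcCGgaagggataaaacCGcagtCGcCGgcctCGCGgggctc
CDKN2A: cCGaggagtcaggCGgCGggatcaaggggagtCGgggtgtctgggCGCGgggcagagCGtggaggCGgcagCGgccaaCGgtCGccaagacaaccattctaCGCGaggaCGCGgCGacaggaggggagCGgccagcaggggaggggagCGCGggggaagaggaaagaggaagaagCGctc
ZNF382: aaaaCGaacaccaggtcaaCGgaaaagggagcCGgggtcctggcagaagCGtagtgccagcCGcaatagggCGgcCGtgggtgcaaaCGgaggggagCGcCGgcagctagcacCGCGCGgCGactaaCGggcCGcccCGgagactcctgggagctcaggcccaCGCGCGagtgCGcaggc
These stretches hold 6, 16, 20 and 21 CG. LDHB and CST3 were at 9.64 and 0.00589 CPM on average in MDAMB468, and CDKN2A and ZNF382 at 0 and 0.0139 CPM in HCC1806. Methylation was not measured.

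The lines were compared again in the shADAR1 libraries, which share no library with the comparison above though they share the lines and the study. Within each line, libraries of the same number deviated together across the hairpins, with correlations of their deviations from the group means of 0.747, 0.815 and 0.854 in HCC1806 and 0.485, 0.455 and 0.325 in MDAMB468, so the shADAR1 libraries are not fully independent of the shNT libraries. With shADAR1 13614 of 21352 genes (63.8%) were called. Of the genes called with shNT, 12325 were also called with shADAR1 in the same direction, which is 91.7% of the shNT calls and 90.5% of the shADAR1 calls, and 3 were called in opposite directions. Of the 6096 genes over 2-fold apart with shNT, 6085 kept their direction and 5940 were called. LAMB3 differed by 8.73 with shADAR1 on the log2 scale, TP63 by 7.15, EGFR by -3.05, RB1 by 5.73, FTL by 4.84 and LDHB by 5.10. MDM2 was at -0.15 (adjusted p = 0.29).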

How the data were processed

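RNA was extracted from cultures of 2 cell lines with a control hairpin, and libraries were made after ribosomal RNA removal, per the labels' protocols. The authors deposited 1 table per library with whole-number read counts, CPM and RPKM per gene, per the file headers. The deposited CPM and RPKM were recomputed from the counts and matched, and were not used further. bcl2fastq, STAR, Subread featureCounts and edgeR are named in the submitters' processing notes, with no role given. Genome build, annotation and strand setting are not given in the sources used here, so antisense and overlapping genes cannot be told apart. Coordinates of genes and windows are those of the deposited files. Of 37416 genes per file, 34265 matched GENCODE 29 (GRCh38) by identifier, and 31357 of them had the same start and end there.

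Counts were fitted with edgeR 4.0.16 (quasi-likelihood, TMM, filterByExpr) in R 4.3.3 over all 24 libraries and 8 groups, so that the groups share an estimate of the spread, and lines were compared within shNT. P-values were adjusted by Benjamini-Hochberg over 21352 genes, with glmTreat for differences beyond 2-fold. The 6 libraries held 24199130 to 53341824 counts, so a gene with no count in a line lies below about 3 counts over its libraries, and this floor and the intervals cover counting error only. On simulated counts for these 21352 genes the test called 85 of 100 genes changed 8-fold, 66 of 100 changed 4-fold and 0 of 21152 unchanged genes. The simulated libraries were independent and only those few genes changed, unlike the data, where 62.9% of genes were called. The simulation therefore does not give the error rate of these calls. Alternatives were other scalings, filters, sets of libraries, a replicate block and DESeq2 1.42.0. Same-numbered libraries of the lines correlated at 0.340, -0.033 and 0.074 in their deviations from the group means over 9910 genes.

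Members and lists were chosen with earlier results of these data known. Genes were named by rule: ADAR and MDM2, the 8 of at least 10 CPM with the widest ratio and the 5 with the most reads in each direction, 2 members per list and direction with the smallest adjusted p, suppressors over 4-fold apart, the 6 extreme windows of 25 genes, and runs of at least 4 genes with at most 10 counts each. Other genes were named after their values were seen. Genes on chromosome Y, XIST and TSIX were left out of naming, and some genes that the rule chose are not reported here.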

Additional observations from a re-analysis of the deposited data

Results flagged for a closer look

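The difference between the lines was itself compared between the hairpins over 21352 genes. One gene passed at an adjusted p under 0.05, and 543 had an unadjusted p under 0.05. That share is below the 0.05 that tests without any difference would give, so the 543 are not further findings. DHRS2, a mitochondrial and nuclear dehydrogenase, had 10.2, 9.07 and 4.11 CPM in HCC1806 and 3.75, 5.27 and 4.40 CPM in MDAMB468 with the control hairpin, so the groups overlapped, although it was called higher in HCC1806 (edgeR, adjusted p = 0.023). With shADAR1 it had 87.9, 36.7 and 54.5 CPM in HCC1806 and 4.88, 5.14 and 4.77 CPM in MDAMB468. The log2 difference between lines was 0.78 with shNT and 3.60 with shADAR1, and the first minus the second was -2.82 (edgeR interaction term, adjusted p = 0.011). Same-numbered libraries of the 2 hairpins deviated together within each line, and blocking on that number within each line, chosen after seeing the data, gave DHRS2 a value of -2.80 (adjusted p = 0.00022) and passed 30 genes in place of 1. Under that block 1668 genes had an unadjusted p under 0.05.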

How the results depend on the processing

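Requiring at least 10 counts in every library of the series removed genes silent in one line and left 8781 called genes, 2438 over 2-fold apart and 8856 called with shADAR1. Leaving out each library in turn gave 12616 to 12926, 5663 to 5865 and 12856 to 13225. All other settings stayed within 1.5 times the counts given. A fit of the 6 shADAR1 libraries alone, chosen after seeing the data, called 12878. The replicate block gave 13638, 6175 and 13811. Between the lines 2 of the 3 same-number correlations were under 0.1, so the numbers were not treated as pairs there, although the libraries numbered 1 correlated best with each other and lay at the same end of the fourth principal component (1.46% of variance) in all 8 groups. A block over all groups left DHRS2 called between hairpins (-2.82, adjusted p = 0.015). Every named gene that was called kept its direction in all settings that gave it a value, though SPRR3, PSMD13, ERBB2, KRT19 and KRT17 lost their call in some, KRT17 in the most. Genes that were not called turned sign in places. With upper-quartile scaling the sign turned at MDM2 (-0.0290), KRT5 (-0.0254), STAT2 (-0.0203). With at least 10 counts in every library the sign turned at MDM2 (-0.0250), STAT2 (-0.0146). Leaving out 1 library turned the sign of MDM2 (-0.0062 to 0.10), PSAT1 (-0.15 to 0.0715), VIM (-0.95 to 0.48), KRT6B (-0.0836 to 0.30), KRT5 (-0.0348 to 0.0829), STAT2 (-0.10 to 0.16), as ranges over the 6 libraries. The log2 differences of low genes are limited by depth, and 97 of the genes chosen for naming had no value under the strictest filter.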
